A study of Mus musculus with 18 samples.

Results

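The genes described here are the mouse Fc gamma receptors that bind IgG together with the signalling subunit they share: Fcgr1, Fcgr3, Fcgr4, Fcer1g and Fcgr2b. They were taken by name as a family, not for how they moved, and make up 5 of the 22852 gene symbols in the count files. All 5 had enough counts to be tested, among 11305 genes tested in all. The RNA came from bone marrow-derived macrophages (BMDMs) of female C57BL/6 mice, whose age is not given in the sources used here. All groups share a culture in medium conditioned by L929 cells, a fibroblast line that supplies the macrophage growth factor, and no group carries a transgene or deletion. The 18 RNA-Seq samples fall into 6 groups of 3 biological replicates. Unstimulated macrophages received neither lipopolysaccharide (LPS, the endotoxin of Gram-negative bacteria) nor carboplatin. LPS-stimulated macrophages received a single dose of LPS at 10 ng/ml for 3 h. LPS-primed macrophages received LPS at 100 ng/ml for 24 h. LPS-tolerant macrophages received the same priming dose for 24 h and then fresh medium with LPS at 10 ng/ml for 3 h. The groups LPS-primed + carboplatin and LPS-tolerant + carboplatin also received carboplatin, a platinum drug that forms DNA adducts, at 25 µM. The methods place carboplatin 1 h before the priming dose, whereas the treatment field of the labels places it after LPS. The 3 h of the single dose were taken from the study's treatment scheme. Whether the replicates came from separate mice is not given in the sources used here, so p-values measure only the spread between these samples.

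Fc gamma receptors are how macrophages sense IgG bound to microbes, cells or immune complexes. Fcgr1, Fcgr3 and Fcgr4 encode activating receptors, which reach the surface and signal through the common gamma chain encoded by Fcer1g. This chain carries an immunoreceptor tyrosine-based activation motif (ITAM) that Src-family kinases phosphorylate and to which the kinase Syk binds, leading to phagocytosis and cytokine release. Fcgr2b encodes the inhibitory receptor, whose own tail carries an inhibitory motif (ITIM) that recruits the lipid phosphatase SHIP-1, encoded by Inpp5d. The balance of activating to inhibitory receptors is known to set how strongly a macrophage responds to immune complexes.

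Fcgr4, Fcgr3, Fcgr2b and Fcer1g are neighbours on chromosome 1, whereas Fcgr1 is on chromosome 3. In GENCODE M39 on GRCm39, Fcgr2b spans chr1:170786186-170804177 on the minus strand. Fcgr4 follows on the plus strand at chr1:170846466-170857330, and Fcgr3 is on the minus strand at chr1:170878738-170893549. Fcer1g is at chr1:171057141-171062219 on the minus strand. Fcgr1 is at chr3:96190225-96201338 on the minus strand. The 5 genes are protein-coding.

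Fcgr2b and Fcgr3 share almost all of the sequence that encodes part of their IgG-binding ectodomain, and this stretch is shown because reads within it bear on how the inhibitory and an activating member were told apart. Below are the 150 bases around the longest run the transcripts share, read 5′ to 3′ from GENCODE M39 transcripts. They lie in 2 coding exons of each gene, on the minus strand of GRCm39, at chr1:170794232-170795660 for Fcgr2b and chr1:170881725-170885371 for Fcgr3. Capitals mark the 2 bases that differ, outside an identical run of 129 bases.
Fcgr2b: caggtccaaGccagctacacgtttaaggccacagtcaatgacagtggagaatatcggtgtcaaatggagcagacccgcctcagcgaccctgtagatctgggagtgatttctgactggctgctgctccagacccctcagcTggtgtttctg
Fcgr3: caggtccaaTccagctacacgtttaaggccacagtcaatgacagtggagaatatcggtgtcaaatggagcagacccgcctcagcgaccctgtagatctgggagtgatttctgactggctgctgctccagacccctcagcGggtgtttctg
The transcripts were 96.3% identical over 512 aligned bases. No stretch of 150 bases, the length of a read, was shared, whereas 2.33% of the 100-base words of Fcgr3 and 1.21% of those of Fcgr2b were. Reads within that stretch could have been split between these genes, and how the counting treated them is not given in the sources used here. No 50-base word was shared between any other pair of the 5 genes.

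The start regions of the members are shown because LPS moved the members in different ways. All 5 matched a RefSeq promoter entry, made on GRCm38.p6, and each matched 1 place in GRCm39. The 250 bases before each RefSeq start were searched on both strands for 4 motifs. The core GAGGAA of PU.1, a factor that specifies macrophages, was found in 23.1% of 27025 promoters, including those of Fcgr1, Fcgr3 and Fcgr4. The following 30 bases of these 3 genes hold it on the opposite strand, in capitals as TTCCTC.
Fcgr1, chr3:96201323-96201352, minus strand: atggcaacttccTTCCTCttttctaatctt
Fcgr3, chr1:170886961-170886990, minus strand: gagtccatttccTTCCTCtttttgtagttc
Fcgr4, chr1:170846461-170846490, plus strand: aaggctatttacTTCCTCtcttctagtcaa
The letters lie 55 to 50 bases before the RefSeq start in Fcgr1. They lie 6 to 1 bases before it in Fcgr3 and 22 to 17 before it in Fcgr4. By GENCODE M39 the printed 30 bases include 16 exonic bases for Fcgr1, 30 for Fcgr3 and 25 for Fcgr4. The Fcgr3 and Fcgr4 letters lie inside the gene spans given above, and the Fcgr1 letters lie across the end of its span. The annotations thus place the starts of all 3 genes differently.

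The longer windows of Fcgr1 and Fcgr4 are shown because each holds a second motif of the interferon pathways. A GAS motif, TTCNNNGAA, which interferon-activated STAT dimers bind, stood in the Fcgr1 window and in 7.18% of all promoters. The letters GAAA, any 2 bases and GAAA again, resembling the element bound by interferon regulatory factors, stood in the Fcgr4 window and in 3.04% of all promoters. Capitals mark these motifs and the PU.1 core, which did not overlap. Of the printed bases, 23 for Fcgr1 and 29 for Fcgr4 lie in GENCODE exon.
Fcgr1, chr3:96201316-96201535, minus strand: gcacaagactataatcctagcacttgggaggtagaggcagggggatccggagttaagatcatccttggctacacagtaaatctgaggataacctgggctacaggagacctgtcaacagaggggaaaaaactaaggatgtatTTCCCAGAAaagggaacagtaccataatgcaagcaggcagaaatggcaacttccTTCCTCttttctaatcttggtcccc
Fcgr4, chr1:170846245-170846494, plus strand: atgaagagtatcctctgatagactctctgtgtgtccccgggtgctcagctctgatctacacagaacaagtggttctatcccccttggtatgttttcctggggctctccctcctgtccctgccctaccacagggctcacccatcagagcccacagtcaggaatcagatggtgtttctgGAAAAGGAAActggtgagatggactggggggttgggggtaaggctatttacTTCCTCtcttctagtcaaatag
The NF-κB consensus was found in the Fcgr3 and Fcgr4 windows, 152 to 143 bases before the start in both, and in 7.01% of all promoters. The windows of Fcer1g and Fcgr2b held none of the 4 motifs, which says only that these letters are not there. These windows and that of Fcgr3 lie wholly inside the GENCODE gene spans given above. The bases before the GENCODE starts of these genes were thus not searched, and the windows are not like regions in all members. A match of letters is a description and not evidence of binding.

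The libraries held 6869667 to 14708099 read pairs assigned to genes (median 8986463). The 5 members had raw counts from 331 to 11738 per sample, so no value rests on a few reads. All 7 macrophage markers were present in every group. B cells express Fcgr2b and NK cells express Fcgr3. The B cell list of 6 markers summed to 0 to 17.3 normalized counts in single samples, most of it Cd79b, with Pax5 at 0 in all groups. The NK cell list of 5 summed to 0 to 3.58, with Ncr1 at 0 in all groups. Of 18 samples, 9 correlated best with a sample of their own group, and the others with a sample of another group given LPS for 24 h. Unstimulated replicate 1 had the lowest Fcgr2b and the highest Fcgr1 of its group.

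At rest the macrophages held far more transcript of the activating members than of Fcgr2b. Levels between genes are compared per kilobase (kb) of exon. The length is the union of exons over all protein-coding transcripts, such as 3490 bases for Fcgr1 and 3874 for Fcgr2b. Other lengths were not tried, and ratios and shares between genes depend on this choice. On this scale of normalized counts per kb, Unstimulated samples averaged 7048 for Fcer1g, 1196 for Fcgr3, 661 for Fcgr1, 374 for Fcgr4 and 116 for Fcgr2b. Fcgr2b made up 5.15% ± 1.90 (SD, n = 3) of the per-kb sum of the 4 receptors, and Fcgr3, the low-affinity activating receptor, made up 51.3%. Fcgr3 was the most abundant of the 4 receptors in every group, at 43.0% to 51.3% of that sum.

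**Figure D1:**
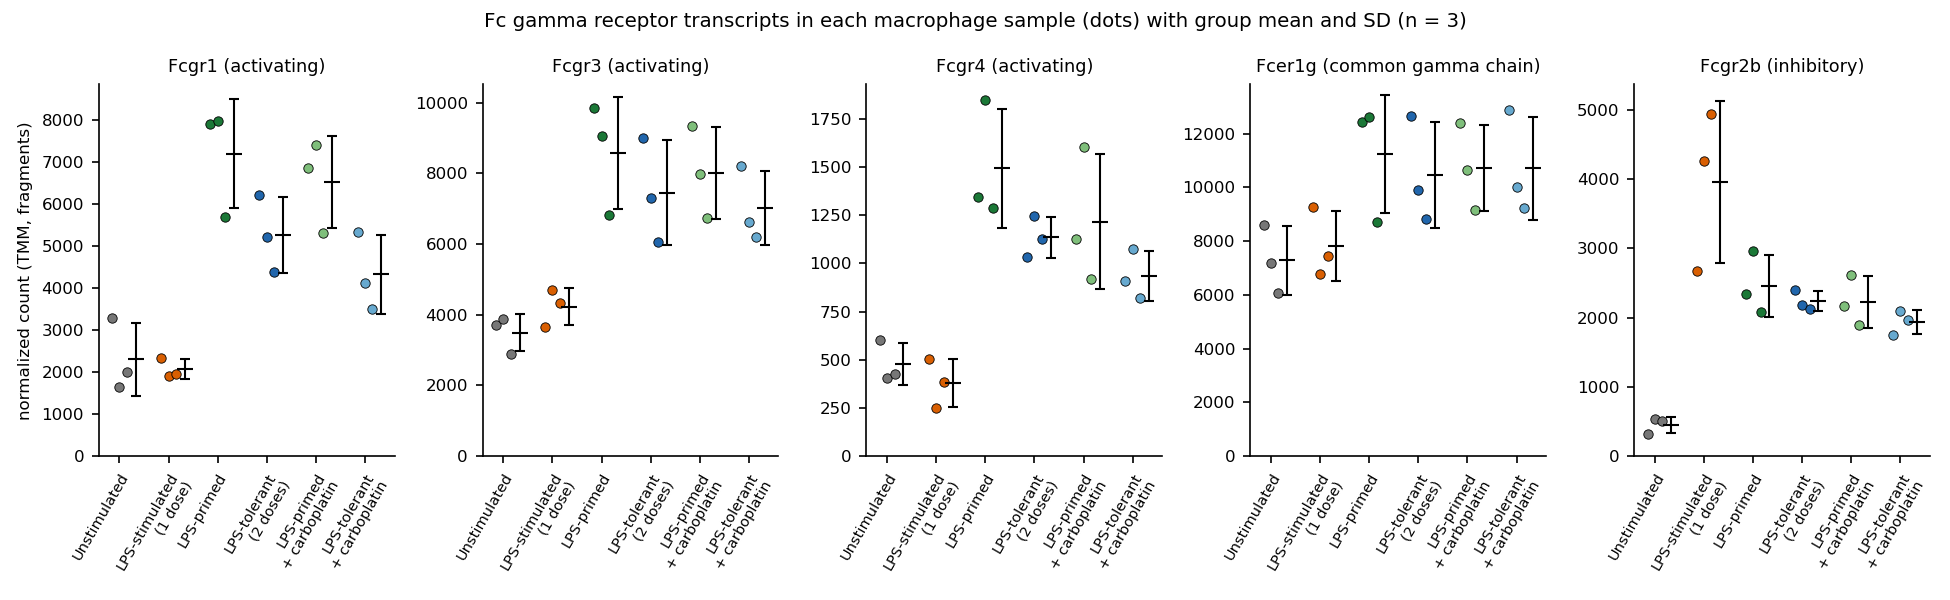
Normalized counts (y axis, linear from 0) of each member in each of the 18 samples by group (x axis), with group mean and SD (n = 3). The groups given LPS for 24 h sit above Unstimulated for all 5 genes, whereas all LPS-stimulated samples sit above all Unstimulated samples only for Fcgr2b.

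To find how the receptors changed during priming, LPS-primed samples were compared with Unstimulated samples. All 5 members rose, and no member's groups overlapped. The edgeR quasi-likelihood test with Benjamini-Hochberg adjustment over all genes called 5 of 5 members, beside 25.2% of all genes in either direction. All 5 were higher, as were 12.1% of all genes, and 18.1% of all genes had groups that did not overlap with the LPS-primed group higher. The median log2 fold change (log2FC) was 1.64 over the members and -0.02 over all genes. In these bulk samples more transcript per cell and more cells carrying it cannot be told apart.

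Fcgr1, the high-affinity IgG receptor, had normalized counts of 3286, 1639 and 1990.5 in Unstimulated replicates 1 to 3 and of 7905, 7989 and 5699.6 in LPS-primed replicates. The lowest LPS-primed sample stood above the highest Unstimulated sample. Fcgr1 rose 3.12-fold (log2FC 1.64, SE 0.24, edgeR adjusted p = 7.0e-05).

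Fcgr3 had normalized counts of 3704, 3889 and 2901 in Unstimulated samples and of 9848, 9076 and 6811 after priming. Every primed sample was above every Unstimulated sample, and the primed replicates spread more widely. Fcgr3 rose 2.45-fold (log2FC 1.29, SE 0.19, edgeR adjusted p = 7.3e-05).

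Fcgr4, which binds mouse IgG2a and IgG2b, was the least abundant activating receptor per kb. Its normalized counts were 600.3, 405 and 428 in Unstimulated samples and 1344, 1849 and 1287 in LPS-primed samples. The groups were far apart, with a fold of 3.13 (log2FC 1.64, SE 0.25, edgeR adjusted p = 0.000101).

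Fcer1g, the common gamma chain, had the smallest change of the 5. Its normalized counts were 8599, 7183 and 6059 in Unstimulated samples and 12423, 12626 and 8700.3 in LPS-primed samples. The groups did not overlap, but LPS-primed replicate 3 was close to Unstimulated replicate 1. The rise was 1.55-fold (log2FC 0.63, SE 0.20, edgeR adjusted p = 0.0274). Without Unstimulated replicate 2 or 3, or LPS-primed replicate 1 or 2, its adjusted p was 0.0698, 0.108, 0.0924 or 0.0974, so the call rests on single samples. With library size alone as the scaling the log2FC was 0.39 with an adjusted p of 0.123.

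Fcgr2b, the inhibitory receptor, rose most. Its normalized counts were 316, 533 and 501 in Unstimulated samples and 2337, 2959 and 2078 in LPS-primed samples. The ranges were widely separated, and the rise was 5.46-fold (log2FC 2.45, SE 0.23, edgeR adjusted p = 6.3e-07). It was the 1 member of 5 past the study's limits, an absolute log2FC over 2 with an adjusted p under 0.05, which 7.47% of all genes passed.

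The macrophage markers moved with this comparison. Their summed normalized counts were 147852 to 166606 in Unstimulated samples and 266164 to 271599 in LPS-primed samples. Adgre1 averaged 13554.6 and 40182 and Itgam 4892 and 27021, whereas Cd68 averaged 29054.5 and 15208. The summed neutrophil list was 8.18 to 15.6 and 84.3 to 438, almost all of it S100a8, with Ly6g and Mpo at 0. The part of these markers in the receptors' rise was not tested.

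To find how a short, single dose acted, LPS-stimulated samples were compared with the same Unstimulated samples. Fcgr2b alone of the 5 members was called, and it rose 8.80-fold. The edgeR test called 51.2% of all genes in either direction and 24.3% as higher. The groups of 26% of all genes did not overlap with the LPS-stimulated group higher, and Fcgr2b was the 1 member of 5 among them. The median log2FC was 0.10 over the members and -0.09 over all genes.

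Fcgr2b had normalized counts of 2675, 4268 and 4946 in LPS-stimulated samples against 316 to 533 in Unstimulated samples. Every stimulated sample was several times above every resting sample, with replicate 1 the lowest. The log2FC was 3.14 (SE 0.24, edgeR adjusted p = 1.9e-08), past the study's limits, which 12% of all genes passed.

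Fcgr1 had normalized counts of 2347, 1905 and 1961 in LPS-stimulated samples, within the range of the Unstimulated samples. Its log2FC was -0.15 (95% interval -0.65 to 0.34, edgeR adjusted p = 0.609). Fcgr3 had 3668, 4691 and 4333, with 1 stimulated sample inside the Unstimulated range and the others above it. Its log2FC was 0.27 (95% interval -0.12 to 0.67, edgeR adjusted p = 0.236).

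Fcgr4 had normalized counts of 502, 250.5 and 383.5 after the single dose, overlapping the Unstimulated samples. Its log2FC was -0.34 (95% interval -0.86 to 0.18, edgeR adjusted p = 0.266). Fcer1g had 9289.8, 6767 and 7435, which also overlapped, with a log2FC of 0.10 (95% interval -0.31 to 0.52, edgeR adjusted p = 0.683). With library size alone as the scaling, which moved the median log2FC of all genes by -0.34, Fcgr4 was called lower (log2FC -0.67, adjusted p = 0.0310), and the uncalled log2FC changed sign to -0.06 for Fcgr3 and -0.23 for Fcer1g.

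The summed macrophage markers were 140137 to 176789 in LPS-stimulated samples, overlapping the Unstimulated range. Single markers of the list moved in both directions beneath this sum. From Unstimulated to LPS-stimulated samples the mean went from 2969 to 37035 for Cd14, from 81926 to 61839 for Lyz2 and from 610 to 67.1 for Mertk. The mast cell and basophil list of 6 markers summed to 131 to 146, mostly Hdc with some Gata2, against 0.820 to 12.4 in Unstimulated samples, and its other 4 markers Cpa3, Mcpt8, Ms4a2 and Fcer1a were at 0. The eosinophil list of 3 summed to 23.5 to 35.5 from Siglecf, against 1.82 to 3.82, with Prg2 and Epx at 0. The part of these markers in the rise of Fcgr2b was not tested.

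**Figure D2:**
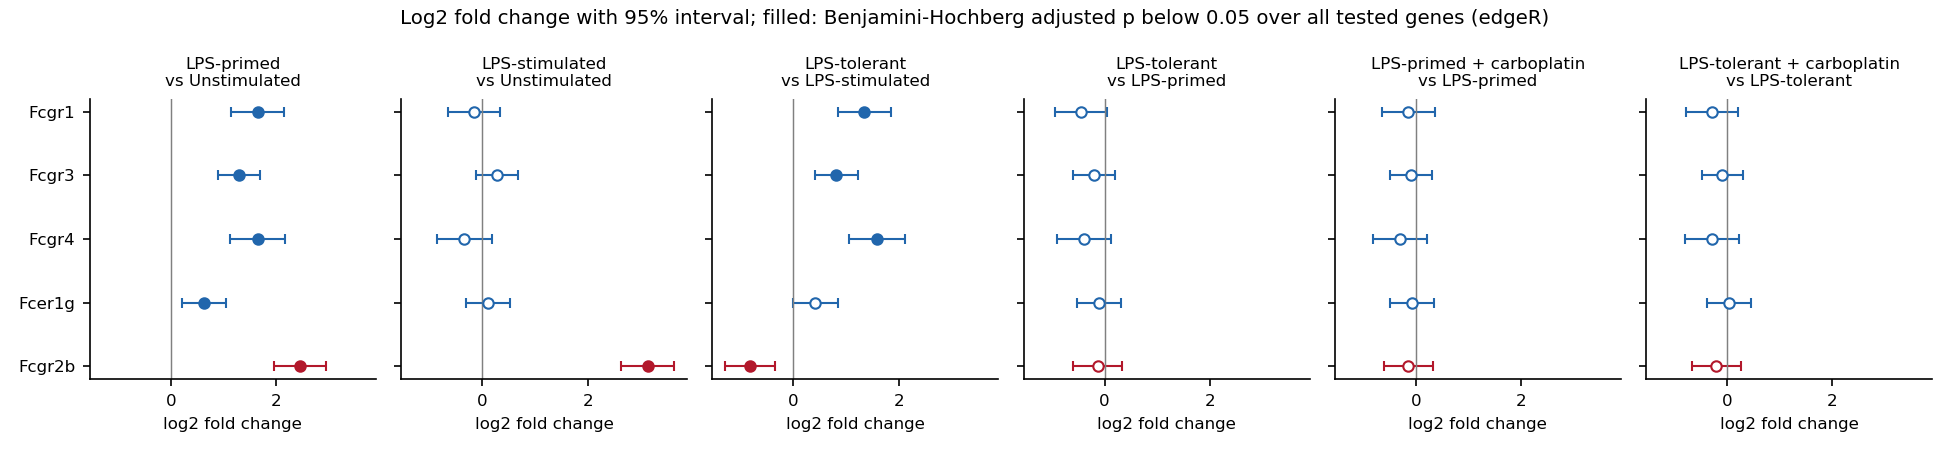
Log2 fold change with 95% interval (x axis) of each member (y axis) in each comparison, with filled points for an adjusted p under 0.05 over all genes tested. All 5 points are filled for LPS-primed against Unstimulated, whereas only Fcgr2b is filled for LPS-stimulated against Unstimulated.

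To find what a repeated dose left of this response, LPS-tolerant samples were compared with LPS-stimulated samples, which had the same last dose. The activating receptors were higher in tolerant cells and Fcgr2b was lower. The edgeR test called 4 of 5 members, beside 34.5% of all genes. Of the members, 3 were higher, as were 16.2% of all genes, and 1 was lower, as were 18.3%. All 4 had groups that did not overlap, as had 21.1% of all genes with the tolerant group higher and 23.1% with it lower. None passed the study's limits, which 8.04% of all genes did. This comparison shares the LPS-stimulated samples with the preceding one, so the values are not independent.

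Fcgr1 had normalized counts of 6207, 5217 and 4391 in LPS-tolerant samples against 1905 to 2347 in LPS-stimulated samples. The groups were clearly apart, with a log2FC of 1.35 (SE 0.24, edgeR adjusted p = 0.000324). Fcgr3 had 9014, 7298 and 6057 against 3668 to 4691, again apart. Its log2FC was 0.82 (SE 0.19, edgeR adjusted p = 0.00279).

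Fcgr4 had normalized counts of 1034.5, 1247 and 1125 in LPS-tolerant samples against 250.5 to 502. It had the largest difference of the 5, with a log2FC of 1.59 (SE 0.25, edgeR adjusted p = 0.000112). Fcer1g had 12664.5, 9898 and 8816 against 6767 to 9289.8, and these ranges overlapped. Its log2FC was 0.42 (edgeR adjusted p = 0.117), and with the replicate number as a block it was 0.41 (SE 0.11, adjusted p = 0.00397), which changes the call.

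Fcgr2b had normalized counts of 2404.5, 2176 and 2132 in LPS-tolerant samples, all below the 2675 of the lowest LPS-stimulated sample. The log2FC was -0.83 (SE 0.22, edgeR adjusted p = 0.00763). Without LPS-stimulated replicate 3, the highest of its group, it was -0.63 with an adjusted p of 0.0510. The direction of the Fcgr2b difference was thus opposite to that of the 3 activating receptors.

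The marker lists moved with this comparison as well. The summed macrophage markers were 140137 to 176789 in LPS-stimulated and 244420 to 300206 in LPS-tolerant samples. The largest part was Lyz2, with means of 61839 and 151970, and the means were 13022 and 31716 for Adgre1 and 4950 and 26921 for Itgam. Cd68 and Cd14 went the other way, with means of 25634 and 16270 and of 37035 and 22645. The summed neutrophil list was 40.8 to 120 and 139.9 to 537, mostly S100a8. The part of these markers in the receptors' differences was not tested.

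The second dose itself, LPS-tolerant against LPS-primed, called 0 of 5 members by edgeR, DESeq2 and limma-voom. At an unadjusted p under 0.05 edgeR also called 0 of 5. Over all genes, 6.31% were called after adjustment and 21.1% at the unadjusted limit. The log2FC was -0.45 for Fcgr1 (adjusted p = 0.292), -0.20 for Fcgr3, -0.39 for Fcgr4, -0.11 for Fcer1g and -0.14 for Fcgr2b. The Fcgr4 groups, 1034.5 to 1247 and 1287 to 1849, did not overlap, as for 13.6% of all genes with the tolerant group lower. With the replicate number as a block Fcgr1 was called lower (log2FC -0.45, SE 0.15, adjusted p = 0.0472). The 95% interval for Fcgr2b ran from -0.60 to 0.33, which excludes a rise of the size seen after the first dose.

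The 2 responses were compared directly, as the log2FC of the second dose (LPS-tolerant against LPS-primed) minus that of the first (LPS-stimulated against Unstimulated). The edgeR contrast called Fcgr2b alone, 1 of 5 members, beside 23.8% of all genes in either direction and 13.3% as lower. The difference for Fcgr2b was -3.27 (SE 0.32, 95% interval -3.95 to -2.60, edgeR adjusted p = 1.1e-06). Fcgr2b started from a mean of 450 normalized counts in Unstimulated samples and from 2458 in LPS-primed samples. The differences were -0.29 for Fcgr1, -0.48 for Fcgr3, -0.05 for Fcgr4 and -0.21 for Fcer1g. With the replicate number as a block Fcgr3 was also called (-0.50, SE 0.18, adjusted p = 0.0420).

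Ordering the 6 group means showed the inhibitory receptor in a different sequence from the activating ones. For Fcgr1 and Fcgr4 the mean normalized count rose from LPS-stimulated through Unstimulated, LPS-tolerant + carboplatin, LPS-tolerant and LPS-primed + carboplatin to LPS-primed. Fcgr3 had Unstimulated lowest and LPS-stimulated next, and was otherwise ordered alike. For Fcgr2b, Unstimulated was lowest and LPS-stimulated highest, with the groups given LPS for 24 h between them.

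Most neighbours in these orders did not differ beyond their spread: 5 of 25 pairs passed the edgeR test. For Fcgr1 the step from Unstimulated to LPS-tolerant + carboplatin passed (log2FC 0.91, SE 0.24, adjusted p = 0.00561), as it did for Fcgr4 (0.97, SE 0.25, adjusted p = 0.00477). That pair of groups differed for 41% of all genes. For Fcgr3 the step from LPS-stimulated to LPS-tolerant + carboplatin passed (0.73, SE 0.19, adjusted p = 0.00571), a pair that differed for 37.1% of all genes. For Fcer1g no step passed.

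For Fcgr2b 2 steps passed. From Unstimulated to LPS-tolerant + carboplatin the log2FC was 2.11 (SE 0.23, edgeR adjusted p = 1.9e-06). From LPS-primed to LPS-stimulated it was 0.69 (SE 0.22, edgeR adjusted p = 0.0175), although these samples overlapped, with 2078 to 2959 and 2675 to 4946 normalized counts, and that pair differed for 44.6% of all genes. The steps that did not pass included LPS-tolerant to LPS-primed + carboplatin, which 5.93% of all genes passed, and LPS-tolerant + carboplatin to LPS-primed + carboplatin, which 1.98% passed.

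The transcript ratio of activating to inhibitory receptors was lowest after the single dose of LPS. Per kb, the sum of Fcgr1, Fcgr3 and Fcgr4 was 20.9 times Fcgr2b in Unstimulated samples (14.7 to 32.8 in single samples) and 2.44 times in LPS-stimulated samples (1.83 to 3.36). It was 9.76 in LPS-primed samples (8.95 to 11.1) and 8.54 in LPS-tolerant samples (7.65 to 9.13). The ranges of Unstimulated, LPS-stimulated and LPS-primed samples did not overlap, whereas those of LPS-primed and LPS-tolerant samples did.

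In LPS-stimulated samples Fcgr2b exceeded Fcgr1 and Fcgr4 per kb of the exon length used here, and the ratios depend on that length. The per-kb ratio of Fcgr1 to Fcgr2b was 0.636 there (0.440 to 0.974 in single samples), against 6.45 in Unstimulated and 3.27 in LPS-primed samples. The ratio of Fcgr4 to Fcgr2b was 0.327, against 3.55 and 1.84. Fcgr3 stayed above Fcgr2b, with a ratio of 1.48 (1.16 to 1.82) against 10.9 and 4.66.

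As a share of the 4 receptors' per-kb sum, Fcgr2b was 30.1% ± 6.38 (SD, n = 3) in LPS-stimulated samples. It was 9.36% ± 0.946 in LPS-primed, 10.5% ± 0.906 in LPS-tolerant, 9.39% in LPS-primed + carboplatin and 10.4% in LPS-tolerant + carboplatin samples. Each LPS-stimulated sample, at 22.9% or more, was above every other sample. The share of Fcgr1 was 27.7% in Unstimulated (20.8% to 34.1% in single samples) and 17.9% in LPS-stimulated samples (15.5% to 22.3%), with overlapping ranges. That of Fcgr4 was 15.9% (14.1% to 17.0%) and 9.01% (5.68% to 13.1%), without overlap. These shares are parts of the same sum, so they also move with Fcgr2b. The edgeR test called neither Fcgr1 nor Fcgr4 in this comparison.

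Relative to the receptors that need it, the common gamma chain was lower after priming. The per-kb ratio of Fcer1g to the sum of the 3 activating receptors averaged 3.16 in Unstimulated samples (3.09 to 3.29) and 3.25 in LPS-stimulated samples (2.79 to 3.88). It averaged 1.76 in LPS-primed samples (1.70 to 1.80) and 2.04 in LPS-tolerant samples (1.93 to 2.16), both apart from the first 2 groups. This ratio was not tested.

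**Figure D3:**
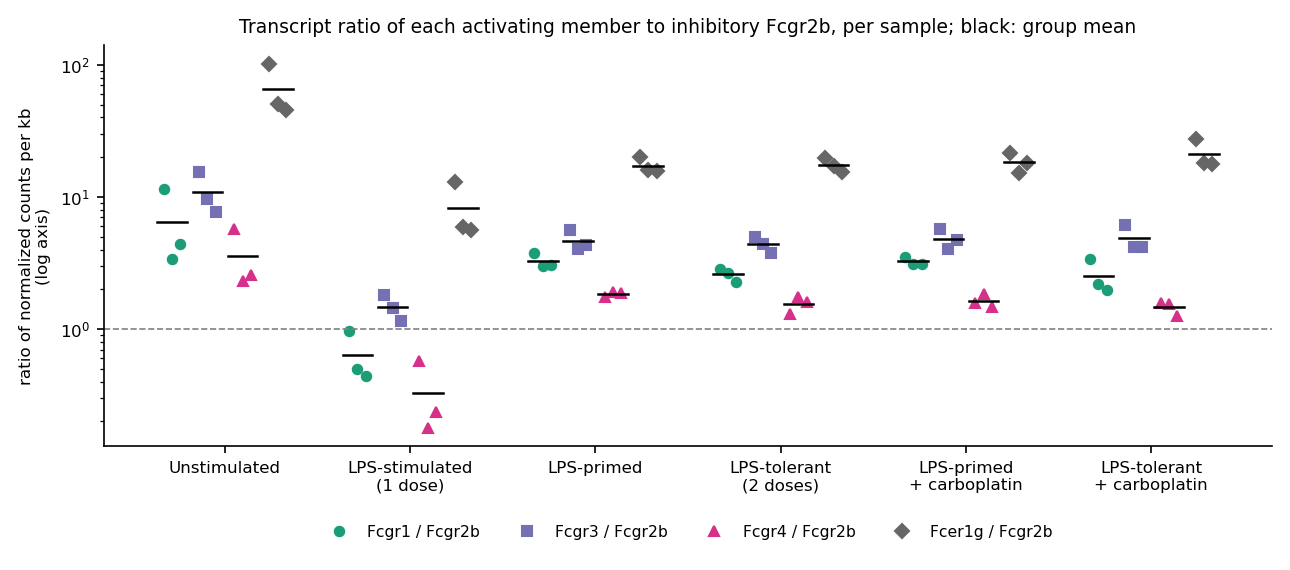
Ratio of normalized counts per kb of each activating member to Fcgr2b (y axis, log scale) in every sample by group (x axis), with group means in black. The LPS-stimulated samples are lowest for all 4 ratios, and Fcgr1 and Fcgr4 fall below 1 there.

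The change of each activating member relative to Fcgr2b was tested with limma on the log2 ratio, with Benjamini-Hochberg adjustment over all genes. In LPS-primed against Unstimulated samples all 4 ratios fell, by 0.78 for Fcgr1 (adjusted p = 0.0372), 1.18 for Fcgr3 (0.000451), 0.82 for Fcgr4 (0.0255) and 1.84 for Fcer1g (1.0e-05) on the log2 scale. The ratio to Fcgr2b also fell for 95.2% of all genes, with a median of -2.48, so a fall is the rule for any gene set against Fcgr2b. The members fell by less than that median. Without Unstimulated replicate 1 only 2 of 4 were called, with -0.25 for Fcgr1 (adjusted p = 0.422) and -0.41 for Fcgr4 (0.234). Fcgr1 was also not called without LPS-primed replicate 2 (0.0857) or 3 (0.0866), nor Fcgr4 without LPS-primed replicate 1 (0.0581).

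In LPS-stimulated against Unstimulated samples the log2 ratios changed by -3.22 for Fcgr1, -2.84 for Fcgr3, -3.49 for Fcgr4 and -3.02 for Fcer1g. All 4 were called lower by limma, as were 94.8% of all genes, whose median was -3.21. In LPS-tolerant against LPS-stimulated samples the ratios were higher by 2.12 for Fcgr1 (adjusted p = 3.4e-05), 1.59 for Fcgr3 (0.00012), 2.41 for Fcgr4 (4.7e-06) and 1.19 for Fcer1g (0.00554). These 4 of 4 stood beside 46.2% of all genes called higher, whose median over all genes was 0.78.

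Between LPS-tolerant and LPS-primed samples 0 of 4 ratios were called by limma, beside 1.77% of all genes, with log2 differences of -0.32, -0.08, -0.26 and 0.02 in the same order. For the second dose minus the first, the ratios differed by 2.89, 2.76, 3.23 and 3.04 and were called higher, as were 94.3% of all genes, with a median of 3.31. All of these ratios share Fcgr2b as their denominator.

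Carboplatin was the study's treatment of interest, and its comparisons called no member. For LPS-primed + carboplatin against LPS-primed samples, edgeR, DESeq2 and limma-voom each called 0 of 5, and 0 of 5 had an unadjusted p under 0.05 by edgeR. Over all genes edgeR called 0.372% after adjustment and 6.86% at the unadjusted limit. The log2FC was -0.14 for Fcgr1, -0.10 for Fcgr3, -0.29 for Fcgr4, -0.07 for Fcer1g and -0.14 for Fcgr2b. The 95% intervals reached from -0.81 (the lower end for Fcgr4) to 0.35 (the upper end for Fcgr1), and a change within a gene's own interval is not excluded.

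With carboplatin, the LPS-primed normalized counts were 6849.9, 7407 and 5301 for Fcgr1 and 9346, 7989.7 and 6744 for Fcgr3. They were 1128, 1603 and 922 for Fcgr4, 12388.5, 10636 and 9169 for Fcer1g, and 2170.3, 2622 and 1889 for Fcgr2b. Each overlapped the samples without the drug.

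For LPS-tolerant + carboplatin against LPS-tolerant samples, the 3 tools again called 0 of 5, with 0 of 5 at an unadjusted p under 0.05 by edgeR. Over all genes edgeR called 0.425% and, unadjusted, 6.73%. The log2FC was -0.29 for Fcgr1, -0.09 for Fcgr3, -0.28 for Fcgr4, 0.03 for Fcer1g and -0.21 for Fcgr2b. The 95% intervals reached from -0.80 (the lower end for Fcgr4) to 0.45 (the upper end for Fcer1g).

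With carboplatin, the LPS-tolerant normalized counts of Fcgr2b were 1756, 2089.9 and 1966, all just below the 2132 of the lowest sample without it. Such separation with the carboplatin group lower held for 6.12% of all genes, and its edgeR adjusted p was 1.00. Fcgr1 had 5340.5, 4127.5 and 3506, Fcgr3 8199, 6637.5 and 6202, and Fcgr4 910.0, 1076 and 819, while Fcer1g had 12868, 10018 and 9245. These 4 overlapped the samples without carboplatin.

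The carboplatin effect in tolerant cells minus that in primed cells was called for 0 of 5 members by edgeR, DESeq2 and limma-voom, and for 0% of all genes by edgeR. At an unadjusted p under 0.05 it was 0 of 5 members and 1.16% of all genes. The log2 differences were -0.14 for Fcgr1, 0.01 for Fcgr3, 0.01 for Fcgr4, 0.10 for Fcer1g and -0.07 for Fcgr2b. By limma, 0 of 4 ratios to Fcgr2b changed with carboplatin in primed cells, in tolerant cells or between them, beside 0.0973%, 0.0442% and 0% of all genes.

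The signalling partners were read from 5 lists drawn from textbook Fc receptor pathways, with 73 genes of which 64 were tested. Of the 8 kinases that act on ITAMs, the single dose raised 5 and lowered none by edgeR, or 62.5% against 51.2% of all genes, and their median log2FC was 1.34 against -0.09 over all genes. Syk, which binds the phosphorylated ITAM, averaged 1828 ± 271.5 (SD, n = 3) normalized counts in Unstimulated and 5338 ± 968 in LPS-stimulated samples (log2FC 1.55, SE 0.15, edgeR adjusted p = 3.0e-07). The Src-family kinase Lyn, which phosphorylates the motif, rose with a log2FC of 1.14 (adjusted p = 8.1e-05). Src itself had the largest rise, from a mean of 38.2 to 1418 (log2FC 5.20, adjusted p = 1.7e-09).

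In LPS-primed against Unstimulated samples 5 kinases were higher and 2 lower, or 87.5% called against 25.2% of all genes. Syk was higher by 0.83 (SE 0.15, edgeR adjusted p = 0.000445), Lyn by 0.73 (0.00735) and Src by 2.48 (1.0e-05) on the log2 scale. Fyn was lower, with -1.05 (0.000125). In LPS-tolerant against LPS-stimulated samples none was higher and 5 were lower, or 62.5% called against 34.5% of all genes in either direction. Of all genes, 18.3% were lower. The 5 included Syk (-0.65, 0.00224), whereas Lyn was not called (-0.02, 0.938). Syk, Lyn and Src were thus higher than at rest in the same primed samples in which all receptors were higher.

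Most inhibitory partners that changed after the single dose moved the other way from Fcgr2b. Of 14 listed genes, 8 were lower and 3 higher by edgeR, or 78.6% against 51.2% of all genes, with a median log2FC of -0.75 against -0.09. Inpp5d, encoding the SHIP-1 phosphatase that Fcgr2b recruits, averaged 3459.8 ± 469 (SD, n = 3) normalized counts in Unstimulated and 1135 ± 319.6 in LPS-stimulated samples. The ranges, 3051 to 3973 and 827 to 1465, did not overlap, and the log2FC was -1.61 (SE 0.19, edgeR adjusted p = 2.0e-06). Ptpn6, encoding the tyrosine phosphatase SHP-1, was lower (-1.14, SE 0.13, adjusted p = 2.7e-06), as was the adaptor Dok1 (-0.51, 0.0168). The lowest log2FC of the list was that of Pag1 (-2.03, 0.00131), an adaptor of the kinase Csk, and the highest that of the inhibitory receptor Lilrb4a (1.52, 4.8e-06).

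After 24 h of priming Inpp5d and Ptpn6 were not called, whereas Fcgr2b was higher. Inpp5d averaged 2716 in LPS-primed samples (log2FC against Unstimulated -0.35, edgeR adjusted p = 0.179) and Ptpn6 averaged 3554 (0.02, 0.927). Dok1 was not called (-0.26, 0.283). Of the 14 genes, 2 were higher, led by the inhibitory receptor Pirb (1.06, 2.0e-06), and 2 were lower, led by the ubiquitin ligase Cblb (-1.54, 0.000125). The share called, 28.6%, is near the 25.2% of all genes. With the replicate number as a block 6 were higher and 2 lower, and with library size alone as the scaling 2 were higher and 6 lower.

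LPS-tolerant samples had 9 of these 14 genes higher than LPS-stimulated samples and none lower, or 64.3% against 34.5% of all genes. Inpp5d was higher by 1.46 (edgeR adjusted p = 1.2e-05) and Ptpn6 by 0.96 (3.2e-05) on the log2 scale, where Fcgr2b was lower. With the block 10 were higher and 3 lower. The second dose minus the first was 1.81 for Inpp5d (5.9e-05) and 0.94 for Ptpn6 (0.0014), and -1.49 for Syk (5.1e-05).

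**Figure D4:**
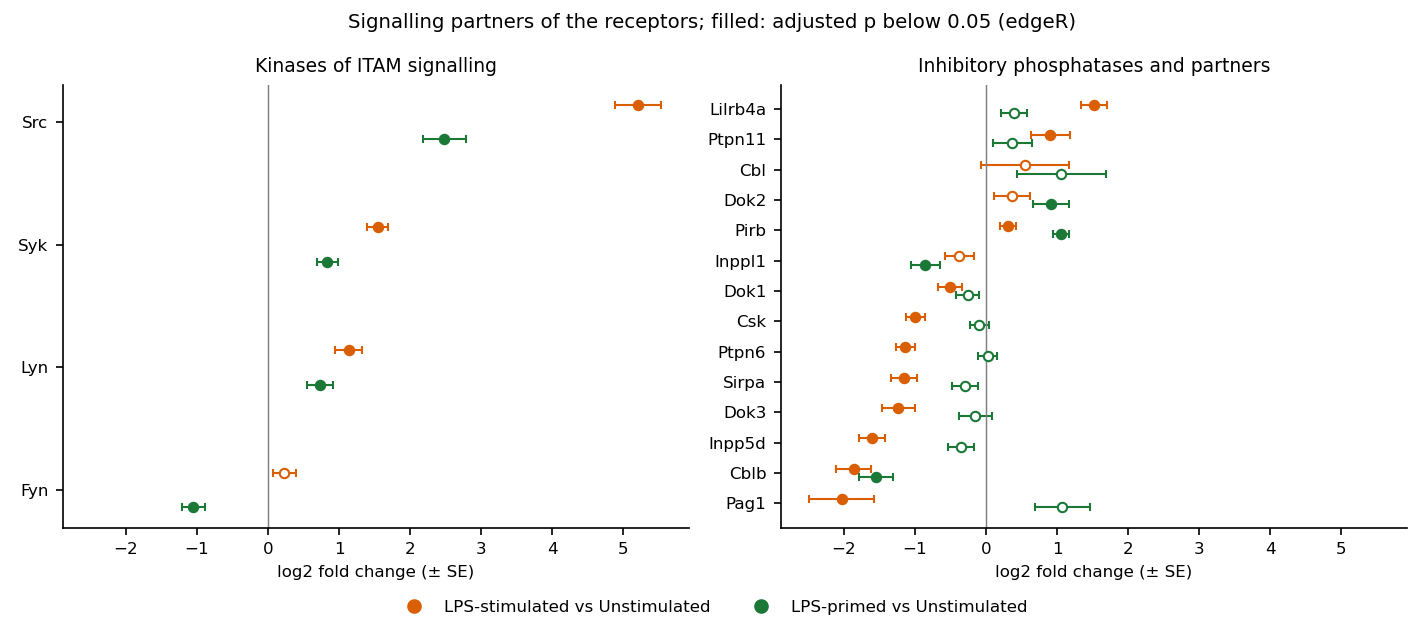
Log2 fold change ± SE (x axis) of 4 kinases of ITAM signalling and of the inhibitory phosphatases and partners (y axis) in LPS-stimulated (orange) and LPS-primed (green) against Unstimulated samples, with filled points for an edgeR adjusted p under 0.05. After the single dose Syk, Lyn and Src lie to the right of 0 and Inpp5d and Ptpn6 to the left.

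Among the other Fc receptors and ITAM adaptors 6 of 13 genes were tested. Fcgrt, the neonatal Fc receptor that recycles IgG inside cells, was lower after priming, with means of 1018 in Unstimulated and 336.5 in LPS-primed samples (log2FC -1.60, edgeR adjusted p = 0.00104). It was not called after the single dose (-0.66, 0.0808). Trim21, the receptor for antibody in the cytosol, rose after the single dose (0.91, 0.00726) and was not called after priming (-0.48, 0.203). Tyrobp, the ITAM adaptor DAP12 of other myeloid receptors, was not called in either (-0.13, 0.42 and -0.36, 0.0557).

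Fcrlb, an intracellular Fc receptor-like protein whose gene lies in the same chromosome 1 cluster, averaged 3.05 normalized counts in Unstimulated, 130.5 in LPS-stimulated and 20.4 in LPS-primed samples. It was called higher in both by edgeR (adjusted p = 2.7e-06 and 0.00575), but its Unstimulated samples held 0 to 6.69 normalized counts, so its fold is poorly set. Cd247, the zeta chain that can pair with Fc receptors in NK cells, averaged 2.46 in Unstimulated and 42.9 in LPS-stimulated samples (adjusted p = 7.8e-05). In LPS-stimulated against Unstimulated samples 3 of the 6 tested genes were higher and none lower. After priming 1 was higher and 1 lower. The shares called, 50% and 33.3%, stood against 51.2% and 25.2% of all genes.

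Of 16 tested adaptors and lipid enzymes downstream of the kinases, 2 were higher and 2 lower after priming and 3 higher and 5 lower after the single dose. These shares, 25% and 50%, are near the 25.2% and 51.2% of all genes. Lcp2, the adaptor SLP-76, was the highest of the list in both, with log2FC of 1.50 (edgeR adjusted p = 1.4e-05) and 2.73 (9.7e-09). Plcg2, the phospholipase downstream of Syk, was lower in both, with -0.58 (0.00736) and -1.04 (2.0e-05). Lat2 was the lowest after priming (-1.06, 0.00714) and the kinase subunit gene Pik3cd after the single dose (-1.55, 4.0e-05). Vav1, the exchange factor that activates Rac, was called in neither (0.26, 0.235 and 0.10, 0.614).

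Of 20 tested genes of actin and engulfment, 4 were higher and 1 lower after priming and 6 higher and 4 lower after the single dose, again 25% and 50% against 25.2% and 51.2% of all genes. Marcksl1, which binds membrane and actin, was the highest in both, with log2FC of 2.65 (edgeR adjusted p = 1.3e-07) and 4.97 (9.7e-11). Rac2, a GTPase of the phagocytic cup and the oxidase, rose after priming (0.68, 0.0308) and was not called after the single dose (0.13, 0.639). Was, an actin nucleation factor, was not called after priming (-0.02, 0.922) and was lower after the single dose (-0.74, 0.00011). The lowest were the actin-severing Gsn after priming (-1.02, 0.000774) and the phospholipase Pld1 after the single dose (-0.77, 0.0203).

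With library size alone as the scaling the single dose left these lists at 2 higher and 2 lower for the other Fc receptors and adaptors, 5 and 1 for the kinases, 2 and 7 for the adaptors and enzymes, 4 and 6 for actin and engulfment, and 1 and 9 for the inhibitory partners. After priming they were 1 and 2, 5 and 3, 1 and 4, 3 and 3, and 2 and 6. No gene called in both scalings changed direction. The balance of higher to lower thus turned over with the scaling for actin and engulfment after the single dose.

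Between LPS-tolerant and LPS-primed samples 6 of the 64 listed genes were called by edgeR, or 9.38% against 6.31% of all genes. They are named here, with their log2FC, after their values were seen. Pik3cb (1.12, adjusted p = 0.00468), Arf6 (0.55, 0.0208), Dok2 (1.01, 0.0211), Cblb (1.18, 0.00677) and Lilrb4a (0.68, 0.0390) were higher. Pik3cd (-1.70, 0.000375) was lower. With the replicate number as a block 15 were called, 10 higher and 5 lower, and more of all genes were called as well.

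Of the 64 listed genes, 1 (1.56%) was called with carboplatin in primed and in tolerant cells, against 0.372% and 0.425% of all genes. It was Dock2, a Rac exchange factor, named here after its values were seen. Its mean fell from 3161 to 1282 normalized counts in LPS-primed cells (log2FC -1.30, SE 0.15, edgeR adjusted p = 0.000197). In LPS-tolerant cells it fell from 2576 to 1001 (-1.36, SE 0.15, adjusted p = 0.000286). The samples with and without the drug did not overlap in either state, with 1202 to 1421 against 2843 to 3751 and 959 to 1078 against 2355 to 2785. With the replicate number as a block 4 listed genes were called in primed and 3 in tolerant cells, all lower with carboplatin. The block also called more of all genes in both states.

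Within 100 kb of the 4 members on chromosome 1, 14 genes that are not members were tested. After priming 1 of the 14, Fcrlb, was higher and 1, Pcp4l1, lower (log2FC -5.15, edgeR adjusted p = 2.1e-07), beside 25.2% of all genes, while all 4 members there were higher. After the single dose 3 were higher and 4 lower, a share near the 51.2% of all genes. Near Fcer1g these included Adamts4 (8.10), 15767 bases away, and Tomm40l (-0.76), 6864 bases away, whereas Fcer1g was not called. Of the 6 tested within 100 kb of Fcgr1 on chromosome 3, 0 were higher and 1 lower after priming.

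Over the 18 samples, log2 levels of the activating members correlated more closely with each other than with Fcgr2b. Pearson's r was 0.941 for Fcgr1 with Fcgr4, 0.910 for Fcgr1 with Fcgr3 and 0.874 for Fcgr3 with Fcer1g, and Fcgr2b reached 0.205 to 0.496 with the others. These are descriptions over samples that share groups, libraries and scaling, and they mostly restate the group means. With the group means removed r was 0.595 for Fcgr1 with Fcgr4 and -0.0326 for Fcgr3 with Fcgr4, below the 0.278 of Fcgr3 with Fcgr2b. The genes most like Fcgr1 were Irf7 (r = 0.952), Calr (0.942) and Slfn4 (0.939), and those most like Fcgr3 were Cfp (0.956), Pf4 (0.955) and Nrg1 (0.950). For Fcgr4 they were Gtf2h2 (0.948), Gm5150 (0.939) and P4ha2 (0.927), and for Fcer1g Reep5 (0.950), Ppib (0.943) and Cyba (0.938). For Fcgr2b they were Cyfip1 (0.979), Vasp (0.965) and N4bp1 (0.964), out of 11300 genes.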

How the data were processed

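The authors made TruSeq stranded mRNA libraries, sequenced read pairs, aligned the pairs with HISAT2 to GRCm39 and tallied each gene by HTSeq-count, and the deposited values are raw counts for each of 18 samples. Tool versions, gene annotation and strand option are not given in the sources used here. Of the read pairs, 41.5% to 46.9% were not on genes and 0.103% to 0.286% were ambiguous, and these were left out. Groups came from the labels, and times from the methods.

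Counts were fitted in edgeR 4.0.16 under R 4.3.3, using its quasi-likelihood F test over all 18 samples with a mean per group, TMM scaling, a filter of at least 10 counts with a total of 15, and a prior count of 0.125. A gene was called at a Benjamini-Hochberg adjusted p under 0.05 over all genes tested. The SE is the absolute log2FC over the square root of F, and intervals are 95%. Normalized counts are TMM-scaled. Ratios to Fcgr2b were tested with limma 3.58.1 on log2 CPM with a prior count of 2. DESeq2 1.42.0, limma-voom, other scalings, filters and priors, a replicate block and leaving out each sample were tried. The scripts' tests were checked on simulated data. Sequences came from RefSeq promoters and GENCODE M39. No protein sequences were used here. Members and lists were chosen with earlier results of these data known. Named list genes were 13 fixed by role and, per list, the called gene with the largest change in each direction after priming and after the single dose, and some of these are not reported here. The list counts under other scalings and the block were added after the data were seen.

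Same-numbered samples deviated together from their group means, with a mean r of 0.35 (0.0631 to 0.574) against -0.17 for other numbers, and every r was over 0.1 in 14 of 15 pairs of groups. The exception was LPS-stimulated with LPS-primed, and the labels do not say what the numbers mark.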

Additional observations from a re-analysis of the deposited data

Results flagged for a closer look

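The Fcgr2b response to LPS differed between macrophages that had and had not been primed. A direct edgeR contrast of the 4 groups, the second dose minus the first, gave -3.27 on the log2 scale (SE 0.32, Benjamini-Hochberg adjusted p = 1.1e-06, 3 samples per group). Fcgr2b rose by 3.14 after the first dose, with all 3 LPS-stimulated samples above all 3 Unstimulated samples. The log2FC after the second dose was -0.14, with overlapping samples. In LPS-primed samples Fcgr2b was already at a mean of 2458 normalized counts, against 450 in Unstimulated samples. It remained high in LPS-tolerant samples, with a mean of 2238, or 4.97 times that of Unstimulated samples. The first dose came on untreated cells and the second 24 h after a higher dose, so priming, time and total exposure cannot be told apart.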

How the results depend on the processing

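Of 360 log2FC values of the members under other settings, 355 kept their side of the threshold, as did 295 of 300 with 1 sample left out. The sign changed in 13 and 36 of them, all of values called neither before nor after, and no called value changed sign. With library size alone the sign changed after the single dose for Fcgr3 (-0.06) and Fcer1g (-0.23), and in the second dose minus the first for Fcgr4 (0.18) and Fcer1g (0.02). In LPS-primed against Unstimulated samples 5 members were called, 1 at the study's limits and 4 to 5 with a sample left out. In LPS-stimulated against Unstimulated samples 1 was called, against 2 with library size alone as the scaling and 2 at an adjusted p under 0.25. In LPS-tolerant against LPS-stimulated samples 4 were called, 0 at the study's limits and 3 to 4 with a sample left out. With the replicate block 1 member rather than 0 was called in LPS-tolerant against LPS-primed samples, and 2 rather than 1 in the second dose minus the first, where an adjusted p under 0.25 also gave 2. Besides Fcer1g in LPS-tolerant against LPS-stimulated samples, the block changed no other call of a member. Of the ratios to Fcgr2b in LPS-primed against Unstimulated samples 2 to 4 of 4 were called with a sample left out. Library size alone moved the median log2FC of all genes by -0.24 after priming, -0.34 after the single dose and 0.24 for the second dose minus the first. The share of calls that were higher then went from 48.1% to 26.4%, 47.5% to 28.5% and 44.2% to 63.3%, and from 57.1% to 38.3% in LPS-tolerant against LPS-primed samples. It also swapped Unstimulated and LPS-stimulated in the order of Fcgr3 and Fcer1g. The cause of these changes was not tested. Over all genes, edgeR called 2847 after priming (4367 with the block, 845 at the study's limits, 5053 at 0.25), 5789 after the single dose (1352 at the limits) and 3900 in LPS-tolerant against LPS-stimulated samples (909 and 6243 at the limits and 0.25). It called 713 in LPS-tolerant against LPS-primed samples (2034 with the block, 77 at the limits, 2508 at 0.25, 454 with these samples alone, 1116 by DESeq2, 330 to 506 with a sample left out). With carboplatin it called 42 in primed cells (200 with the block, 136 at 0.25, 19 with these samples alone, 119 by DESeq2, 24 to 36 with a sample left out). In tolerant cells it called 48 (200, 187, 6 and 144 in the same order, 24 by limma-voom, 18 to 36 with a sample left out). For the second dose minus the first it called 2691 (4091 with the block, 905 at the limits, 4845 at 0.25).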
